A study of Homo sapiens with 12 samples.

Results

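The genes described here are the human aldehyde oxidase gene AOX1 and 8 aldehyde dehydrogenase genes, ALDH1A1, ALDH1A3, ALDH1B1, ALDH2, ALDH3A1, ALDH3A2, ALDH3B1 and ALDH7A1. They were picked by gene symbol, as 9 of the 60106 genes counted, after it was seen that AOX1 differed in opposite directions in 2 cell lines when the transcription factor FOXA1 was knocked down. The values that led to that choice, siFOXA1 against NSI in each line and the difference between the lines, are therefore given for these genes as a description, with no p-value. Where such a gene is said to reach or miss the threshold for a call, this too is a description and not a test of it. RNA was sequenced from PC3 and VCaP, both established human prostate cancer cell lines, 72 h after transfection with a non-targeting siRNA (NSI) or an siRNA against FOXA1 (siFOXA1), with 3 libraries in each of the 4 groups. The PC3 groups received 20 nM siRNA, grew in RPMI-1640 and were sequenced from polyA RNA with the TruSeq stranded mRNA kit. The VCaP groups received 40 nM siRNA, grew in DMEM and were sequenced from total RNA with the TruSeq total RNA kit. Both lines were grown with foetal calf serum and transfected with RNAiMax. Line, dose, medium, kit and the use of strand in counting cannot be told apart. Each line is a single established line, and nothing in the labels says that the replicates were separate cultures, so p-values measure the spread between these libraries, which may be technical.

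Aldehydes arise from alcohols, amines, retinol and oxidised lipids, and react with protein and DNA if they are not oxidised to acids. The aldehyde dehydrogenases do this with NAD or NADP, whereas AOX1 is a molybdenum enzyme that uses oxygen and also oxidises nitrogen-containing rings of drugs. ALDH1A1 and ALDH1A3 make retinoic acid, the ligand of the nuclear retinoic acid receptors, and ALDH activity is widely used to mark progenitor-like cells, in the prostate as in other epithelia.

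Levels are in CPM, counts scaled to library size, on the scale of each line's own normalization, and as CPM per kilobase of exon (FPKM) where genes are compared with each other. Differences are log2 fold changes of siFOXA1 over NSI with their standard error (SE), and a gene is called when its adjusted p in edgeR's quasi-likelihood test is under 0.05. Library totals were 123140099 to 188226483 counts in PC3 and 48187047 to 59839211 counts in VCaP. KLK3, which encodes prostate-specific antigen, was high in VCaP and at or near 0 in PC3 in every library. FOXA1 stood at 296, 247 and 261 CPM in the PC3 NSI libraries and at 165, 184 and 164 CPM with siFOXA1, which left 63.8% of the NSI level. In VCaP it stood at 458, 468 and 544 CPM with NSI and at 85.2, 73.6 and 83.1 CPM with siFOXA1, which left 16.5%. The groups did not overlap in either line, where the exact permutation test of 3 against 3 gave p = 0.1, the smallest it can give. The FOXA1 log2 fold changes were -0.65 (SE 0.10, edgeR adjusted p = 0.00222) in PC3 and -2.60 (SE 0.09, adjusted p = 1.84e-07) in VCaP, so the knockdown was deeper in VCaP (difference -1.93, SE 0.15, edgeR adjusted p = 3.12e-07). Such a difference between the lines was called for 22.2% of all 30425 genes, 11.3% higher and 11% lower in VCaP.

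Promoter sequences from RefSeq (GRCh38.p14, the 250 bases before the start site, 5′ to 3′ on the gene's strand) are printed for the 3 genes whose siFOXA1 libraries all lay above the NSI libraries in PC3 and below them in VCaP, AOX1, ALDH1A1 and ALDH7A1 (in PC3 ALDH7A1 missed the threshold for a call), and for ALDH1A3, whose siFOXA1 libraries lay above in both lines. Capitals mark every match, on either strand, to the motifs searched: the forkhead forms TGTTTAC and TGTTTGC, the antioxidant element TGACNNNGC, the CCAAT box and the TATA box TATAAA. The first is AOX1 at chr2:200585764-200586013, plus strand, the second ALDH1A1 at chr9:72953054-72953303, minus strand, the third ALDH7A1 at chr5:126595220-126595469, minus strand, and the last ALDH1A3 at chr15:100879581-100879830, plus strand.
AOX1: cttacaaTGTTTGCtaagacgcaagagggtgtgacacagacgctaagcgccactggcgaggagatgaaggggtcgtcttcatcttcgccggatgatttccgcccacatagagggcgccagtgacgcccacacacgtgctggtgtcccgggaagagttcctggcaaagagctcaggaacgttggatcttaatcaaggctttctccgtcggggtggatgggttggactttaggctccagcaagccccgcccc
ALDH1A1: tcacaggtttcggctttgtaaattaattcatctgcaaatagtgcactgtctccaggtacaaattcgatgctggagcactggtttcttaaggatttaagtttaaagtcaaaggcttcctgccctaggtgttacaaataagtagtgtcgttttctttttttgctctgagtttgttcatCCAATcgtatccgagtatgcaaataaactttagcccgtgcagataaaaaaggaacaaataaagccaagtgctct
ALDH7A1: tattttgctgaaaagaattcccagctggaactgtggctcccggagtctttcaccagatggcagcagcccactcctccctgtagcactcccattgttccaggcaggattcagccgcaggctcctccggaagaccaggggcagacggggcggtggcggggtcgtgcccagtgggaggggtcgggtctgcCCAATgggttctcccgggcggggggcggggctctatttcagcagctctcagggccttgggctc
ALDH1A3: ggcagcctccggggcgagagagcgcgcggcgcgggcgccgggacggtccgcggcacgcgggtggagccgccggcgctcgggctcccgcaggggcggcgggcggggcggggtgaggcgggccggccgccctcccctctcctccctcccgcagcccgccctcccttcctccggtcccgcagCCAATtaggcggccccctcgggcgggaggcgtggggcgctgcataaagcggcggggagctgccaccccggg

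The AOX1 window held TGTTTGC on the plus strand at -243 to -237 from the start site and none of the other motifs, whereas ALDH1A1, ALDH7A1 and ALDH1A3 each held only a CCAAT box, starting at -74, -63 and -71. None of these matches overlapped another motif. Of 35116 RefSeq promoters, 3.23% held TGTTTGC, 2.98% TGTTTAC, 10.9% TGACNNNGC, 32% CCAAT and 10.7% TATAAA. The windows also differed in base composition, from 38.4% G or C in ALDH1A1 through 57.6% in AOX1 and 64% in ALDH7A1 to 82.4% in ALDH1A3, beside a median of 58% over all promoters. RefSeq promoters were matched for 7 of the 9 genes, the others being ALDH2 and ALDH3A1. A match is a string of letters and was not tested as a binding site.

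AOX1 was higher in PC3 and lower in VCaP when FOXA1 was knocked down. The gene lies on chromosome 2 at 201450591 to 201536218 (GRCh37, plus strand), and none of its exonic bases overlapped an exon of another gene. In PC3 it stood at 17.2, 14.98 and 18.0 CPM with NSI and at 45.5, 37.7 and 39.0 CPM with siFOXA1. Every siFOXA1 library lay above every NSI library, a log2 fold change of 1.28 (SE 0.11). In VCaP it stood at 48.6, 37.0 and 31.0 CPM with NSI and at 4.31, 3.28 and 3.69 CPM with siFOXA1. Here every siFOXA1 library lay below every NSI library, a log2 fold change of -3.37 (SE 0.17), and the siFOXA1 mean was 9.67% of the NSI mean. The NSI groups were thus in one order, PC3 below VCaP, and the siFOXA1 groups in the other, PC3 above VCaP. The VCaP change minus the PC3 change was -4.63 (SE 0.22), and it lay between -4.77 and -4.45 over 18 alternative fits. The AOX pseudogenes next to it held little signal, at most 29 counts in a library for AOX2P and 20.5 for AOX3P. These are bulk libraries, in which fewer cells of a type and less RNA per cell cannot be told apart.

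**Figure D1:**
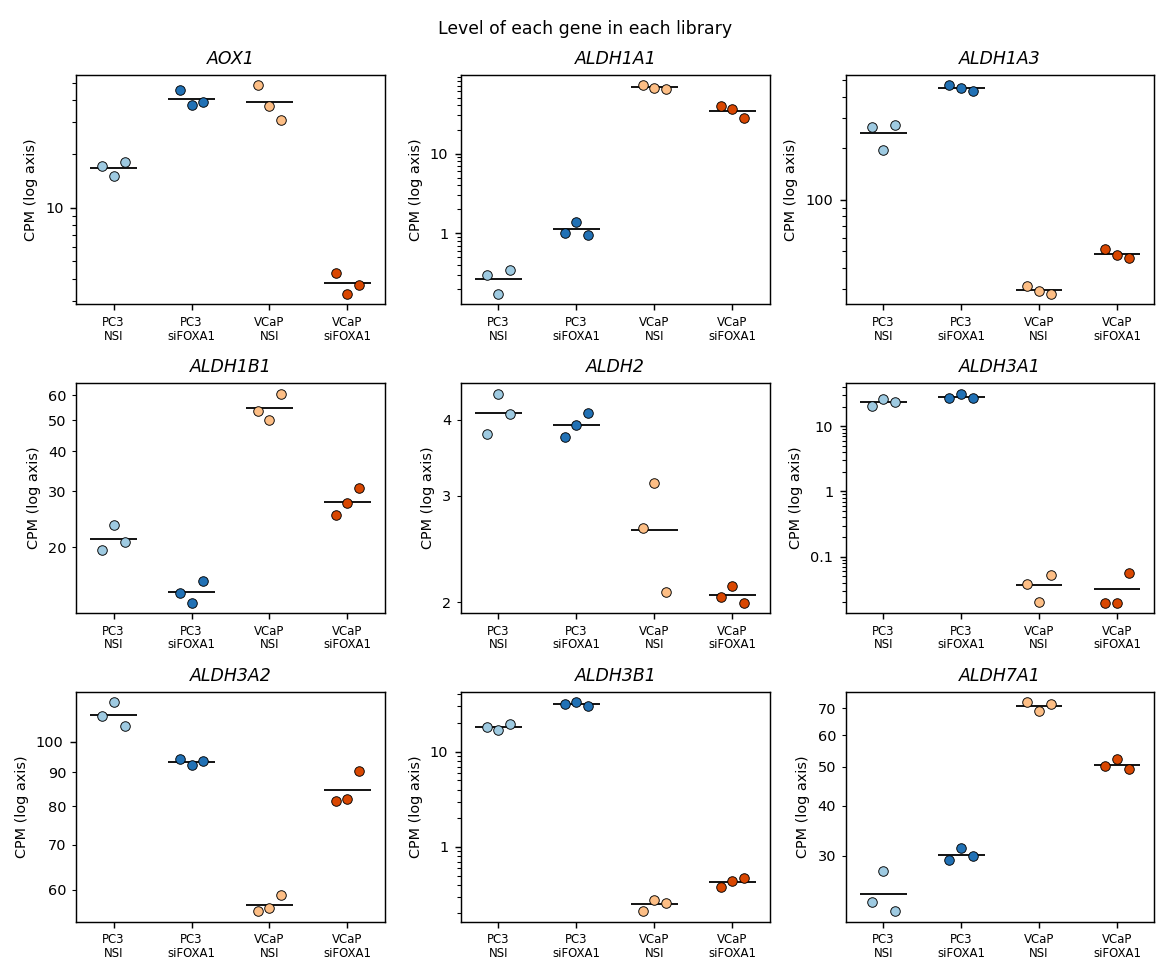
CPM of the 9 genes (vertical axes, log scale, each gene with its own range) in the 12 libraries. Points are the 3 libraries of a group, in the order of replicate number, and lines are group means. AOX1 and ALDH1A1 change in opposite directions in PC3 and VCaP, and ALDH3A1 in VCaP rests on 1 to 3 counts per library.

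The retinaldehyde dehydrogenases ALDH1A1 and ALDH1A3 went separate ways. ALDH1A1 (chromosome 9, 75515578 to 75567972, minus strand) was barely expressed in PC3, at 0.298, 0.174 and 0.344 CPM with NSI and at 1.03, 1.41 and 0.957 CPM with siFOXA1. These groups did not overlap, and the log2 fold change was 2.03 (SE 0.28), from 133 counts over the NSI libraries and 509 over the siFOXA1 libraries. In VCaP it was abundant, at 72.3, 66.2 and 63.6 CPM with NSI and at 39.1, 35.7 and 27.9 CPM with siFOXA1. The VCaP log2 fold change was -0.98 (SE 0.11), again with no overlap, so ALDH1A1 took the same pair of directions as AOX1. The VCaP change minus the PC3 change was -2.96 (SE 0.27). Even the lowest VCaP siFOXA1 library held far more ALDH1A1 than the highest PC3 library.

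ALDH1A3 (chromosome 15, 101419581 to 101456831, plus strand), which like ALDH1A1 makes retinoic acid, was higher with siFOXA1 in both lines. In PC3 it stood at 266, 195 and 276 CPM with NSI and at 470, 450.5 and 434 CPM with siFOXA1. In VCaP it stood at 31.6, 29.4 and 28.2 CPM with NSI and at 51.9, 47.7 and 45.8 CPM with siFOXA1. The groups did not overlap in either line, and the log2 fold changes of 0.88 (SE 0.13) and 0.71 (SE 0.07) differed by -0.15 (SE 0.17), with a 95% interval from -0.51 to 0.21. Exons of the antisense gene RP11-66B24.4 covered 29.2% of the exonic bases of ALDH1A3. In PC3, where counting ignored strand, a fragment over the shared bases was divided between the pair. RP11-66B24.4 was counted at 107 ± 18.5 CPM with NSI and 190 ± 11.4 CPM with siFOXA1 in PC3 (SD, n = 3 each), against 1.83 ± 0.19 and 2.15 ± 0.125 CPM in VCaP, where strand was used. The PC3 level of ALDH1A3 is therefore uncertain by the fragments assigned to its partner, and how many they are was not tested.

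Of the mitochondrial acetaldehyde-oxidising enzymes, ALDH1B1 was lower with siFOXA1 in both lines and ALDH2 was low throughout. ALDH1B1 (chromosome 9, 38392661 to 38398658, plus strand) stood in PC3 at 19.6, 23.5 and 20.8 CPM with NSI and at 14.4, 13.4 and 15.7 CPM with siFOXA1. The VCaP values were 53.5, 50.1 and 60.7 CPM with NSI and 25.3, 27.6 and 30.7 CPM with siFOXA1. Neither pair of groups overlapped, and the log2 fold changes were -0.55 (SE 0.11) in PC3 and -0.98 (SE 0.09) in VCaP. The VCaP change minus the PC3 change was -0.40 (SE 0.15, 95% interval -0.72 to -0.09). That interval is not adjusted for the number of genes, and the difference missed the threshold for a call, which it reached in 8 of 18 alternatives. ALDH2 (chromosome 12, 112204691 to 112255333, plus strand), the enzyme that clears acetaldehyde after drinking alcohol, stood in PC3 at 3.78, 4.42 and 4.09 CPM with NSI and at 3.75, 3.92 and 4.10 CPM with siFOXA1. VCaP held 2.66, 3.15 and 2.08 CPM with NSI and 2.04, 2.13 and 2.00 CPM with siFOXA1. The groups overlapped in both lines, and the 95% intervals of the log2 fold changes were -0.32 to 0.20 in PC3 and -0.72 to 0.01 in VCaP. Exons of the gene RP11-162P23.2 covered 7.08% of the exonic bases of ALDH2 on the same strand.

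The ALDH3 enzymes act on medium- and long-chain aldehydes, many of them from lipid. ALDH3A2 (chromosome 17, 19551839 to 19580911, plus strand), the fatty aldehyde dehydrogenase of the endoplasmic reticulum that is mutated in Sjögren-Larsson syndrome, took the reverse of the AOX1 pattern. In PC3 it stood at 109, 115 and 105 CPM with NSI and at 94.3, 92.1 and 93.4 CPM with siFOXA1. In VCaP it stood at 55.7, 56.2 and 58.9 CPM with NSI and at 81.3, 82.0 and 90.3 CPM with siFOXA1. The groups did not overlap in either line, with siFOXA1 below NSI in PC3 (log2 fold change -0.23, SE 0.08) and above it in VCaP (0.57, SE 0.06), a difference of 0.82 (SE 0.11). The PC3 change missed the threshold for a call.

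ALDH3B1 (chromosome 11, 67776048 to 67796743, plus strand), a membrane-bound enzyme for lipid-derived aldehydes, stood in PC3 at 18.0, 17.0 and 19.8 CPM with NSI and at 31.7, 33.3 and 30.5 CPM with siFOXA1. In VCaP it was near the limit of detection, with 11, 14 and 15 counts in the NSI libraries and 19, 22 and 25 in the siFOXA1 libraries. The log2 fold changes of 0.80 (SE 0.09) and 0.78 (SE 0.24) were nearly equal, with a 95% interval of their difference from -0.49 to 0.49. ALDH3A1 (chromosome 17, 19641297 to 19651746, minus strand), known for its abundance in the cornea, stood in PC3 at 20.7, 26.3 and 23.5 CPM with NSI and at 26.8, 31.7 and 27.0 CPM with siFOXA1, a log2 fold change of 0.28 (SE 0.12) with no overlap. In VCaP it held 2, 1 and 3 counts with NSI and 1, 1 and 3 with siFOXA1, which was too few to be tested or to give a fold change. The antisense gene RP11-311F12.2 shared 4.34% of its exonic bases.

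ALDH7A1 (chromosome 5, 125866892 to 125931110, minus strand), or antiquitin, works in lysine breakdown and is mutated in pyridoxine-dependent epilepsy. It stood in PC3 at 23.0, 27.5 and 21.8 CPM with NSI and at 29.3, 31.3 and 29.9 CPM with siFOXA1. VCaP held 72.6, 69.1 and 71.8 CPM with NSI and 50.2, 52.5 and 49.4 CPM with siFOXA1. The groups did not overlap in either line, and the signs were those of AOX1, with log2 fold changes of 0.32 (SE 0.10) in PC3, where the change missed the threshold for a call, and -0.49 (SE 0.05) in VCaP. VCaP and PC3 thus differed by -0.79 (SE 0.12) in this change.

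**Figure D2:**
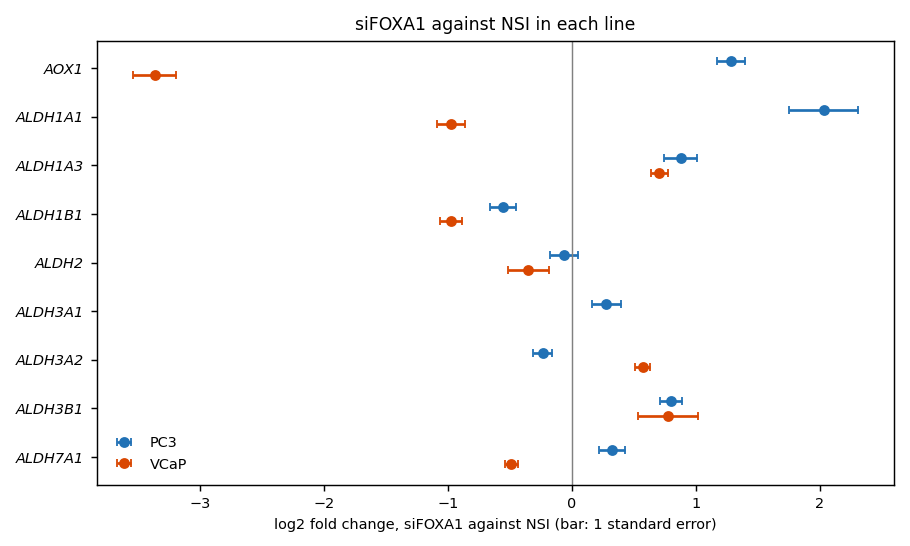
Log2 fold change of siFOXA1 over NSI (horizontal axis) for each gene, with PC3 in blue and VCaP in orange and bars of 1 SE. AOX1, ALDH1A1 and ALDH7A1 lie right of 0 in PC3 and left of it in VCaP, ALDH3A2 does the reverse, and ALDH3A1 has no VCaP value.

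These contrasts led to the choice of the genes, so what follows describes their values, is no test of them, and is not read against the shares over all genes. In PC3 the siFOXA1 and NSI libraries did not overlap for 8 of the 9 genes, and in VCaP for 7. The share of all genes with no overlap was not counted, so nothing is read from these counts. By the threshold applied to all genes, 5 of the 9 lay past it in PC3, AOX1, ALDH1A1, ALDH1A3 and ALDH3B1 higher and ALDH1B1 lower, beside 27% of all 26435 genes tested, 15% higher and 12.1% lower. ALDH7A1, ALDH3A2 and ALDH3A1 did not reach it in PC3 and did so when replicate numbers were blocked, which made 8. In VCaP 7 of the 8 that could be fitted lay past it, ALDH1A3, ALDH3A2 and ALDH3B1 higher and AOX1, ALDH1A1, ALDH1B1 and ALDH7A1 lower, beside 45.8% of all 22925 genes, 22.5% higher and 23.3% lower. ALDH3B1 in VCaP did not reach it without NSI replicate 1, siFOXA1 replicate 2 or siFOXA1 replicate 3, or with DESeq2, at log2 fold changes from 0.66 to 0.77. The median log2 fold change was 0.32 over the 9 genes and 0.02 over all genes in PC3, and -0.42 over 8 genes and 0.02 over all genes in VCaP.

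The lines were compared without knockdown in the NSI libraries alone, a contrast that was not itself used in the choice. These libraries are also part of the contrasts that were used, so the values are not independent of the choice. Choosing AOX1 for a rise in PC3 and a fall in VCaP favours a higher NSI level in VCaP, so its p-value here is only a description. All 9 genes were fitted, with 4 called higher and 5 lower in VCaP, beside 87% of all 28132 genes, 42.4% higher and 44.6% lower. Higher in VCaP were ALDH1A1 (log2 difference 7.90, SE 0.20, edgeR adjusted p = 2.01e-11), ALDH7A1 (1.55, SE 0.10, adjusted p = 3.09e-08), ALDH1B1 (1.35, SE 0.10, adjusted p = 1.75e-07) and AOX1 (1.20, SE 0.16, adjusted p = 1.89e-05). Lower in VCaP were ALDH3B1 (-6.20, SE 0.17, edgeR adjusted p = 4.31e-11), ALDH1A3 (-3.07, SE 0.16, adjusted p = 4.79e-09), ALDH3A2 (-0.96, SE 0.09, adjusted p = 7.71e-07) and ALDH2 (-0.66, SE 0.17, adjusted p = 0.00331). ALDH3A1 was also called lower in VCaP, but it had 6 counts over the VCaP libraries and 11132 over the PC3 libraries, and no fold change is given for it. For all 9 genes the CPM of the 3 PC3 libraries and of the 3 VCaP libraries did not overlap, each line being on its own scale. How many of all genes did the same was not counted. Upper-quartile factors moved the median of all genes from -0.07 to 0.22, and ALDH2 (-0.37, edgeR adjusted p = 0.0691) then missed the threshold. Set beside the knockdown values of VCaP, the 4 genes with more RNA there than in PC3 all had negative log2 fold changes with siFOXA1, whereas ALDH1A3, ALDH3A2 and ALDH3B1, with less, had positive ones and ALDH2 a negative one. The NSI libraries of VCaP enter both of these comparisons, so no test is drawn from this.

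Per length, ALDH1A3 led the 9 genes in PC3 with NSI at 45.3 ± 8.09 FPKM (SD, n = 3 for each group), followed by ALDH3A2 at 26.5 ± 1.11 FPKM and ALDH3A1 at 10.4 ± 1.25 FPKM. ALDH1B1 at 6.95 ± 0.647 and ALDH3B1 at 6.23 ± 0.477 FPKM overlapped between libraries. Below them lay ALDH7A1 at 4.44 ± 0.556, AOX1 at 3.29 ± 0.307, ALDH2 at 0.427 ± 0.033 and ALDH1A1 at 0.129 ± 0.0417 FPKM. In VCaP with NSI the order began with ALDH1A1 at 32.0 ± 2.10 FPKM and ALDH1B1 at 17.9 ± 1.76 FPKM. ALDH3A2 at 13.8 ± 0.414 and ALDH7A1 at 13.1 ± 0.340 FPKM lay closer to each other than the sum of their SDs. AOX1 at 7.66 ± 1.77 FPKM and ALDH1A3 at 5.48 ± 0.321 FPKM came next, and ALDH2, ALDH3B1 and ALDH3A1 were all under 0.3 FPKM.

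The summed level of the 9 genes was 104 ± 5.69 FPKM with NSI and 148 ± 3.96 FPKM with siFOXA1 in PC3, and 90.2 ± 3.70 against 65.1 ± 1.36 FPKM in VCaP. The groups of each line were separate, upward in PC3 and downward in VCaP. ALDH1A3 made up 43.5 ± 5.64% of the PC3 sum with NSI and 56.0 ± 0.812% with siFOXA1, while ALDH3A2 went from 25.7 ± 2.53% to 15.2 ± 0.410%. In VCaP the largest share moved from ALDH1A1, 35.4 ± 1.33% with NSI and 24.9 ± 3.71% with siFOXA1, to ALDH3A2, 15.3 ± 0.898% and 31.4 ± 2.50%. With no division by length, ALDH7A1 led in VCaP with NSI instead, at 22.1 ± 0.571% beside 20.9 ± 0.723% for ALDH1A1, and ALDH3A2 led with siFOXA1 at 33.5 ± 2.22%. ALDH1B1 went from 19.8 ± 2.08% to 14.0 ± 1.67% there, and ALDH1A3 from 6.07 ± 0.206% to 13.7 ± 0.612%. AOX1 held 3.17 ± 0.124% and then 5.40 ± 0.466% of the sum in PC3, against 8.46 ± 1.65% and then 1.14 ± 0.143% in VCaP. AOX1, with the largest log2 fold change of the 9 genes in VCaP, thus never held the largest share in any group.

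**Figure D3:**
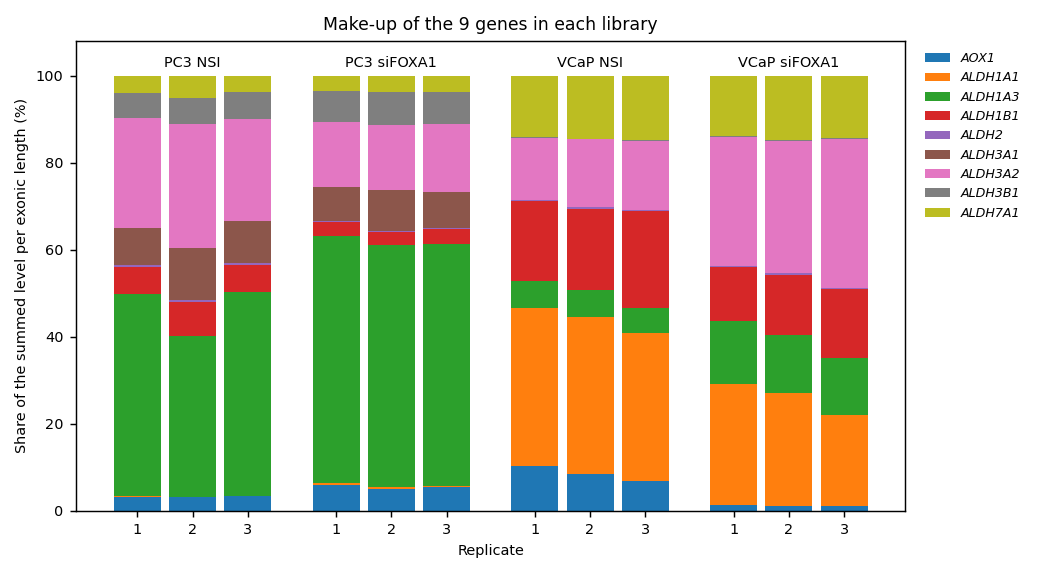
Share of each gene (vertical axis, %) in the summed level per exonic length of the 9 genes, 1 bar per library, grouped by line and siRNA. ALDH1A3 fills the largest part in PC3, and in VCaP ALDH1A1 has the largest part with NSI and ALDH3A2 with siFOXA1.

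Across the 12 libraries, with log2(CPM + 1) centred within each line, AOX1 ran with ALDH1A1 (Pearson r = 0.93) and ALDH7A1 (0.89) and against ALDH3A2 (-0.98). ALDH1A3 ran with ALDH3B1 (0.88) and against ALDH1B1 (-0.90). Among 13292 genes with at least 1 CPM in each line, the profiles most like AOX1 were PRDM1 (r = 0.988), LIN7A (0.987), GLIPR1 (0.987), GOLM1 (0.987) and PHLDB2 (0.985). PRDM1, a transcriptional repressor that drives plasma cell differentiation, had log2 fold changes of 2.09 in PC3 and -2.66 in VCaP, and GOLM1, a Golgi membrane protein, 0.58 and -2.15. The points are 4 groups of 3 libraries that share the siRNA, so these values describe the groups' order and carry no test.

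The 11 other ALDH genes were read as the neighbouring members of the family. In PC3, 0 of the 9 tested were called by edgeR, 3 had an unadjusted p under 0.05, 2 were called by DESeq2, and 4 were called with the replicate block (ALDH1L2, ALDH4A1 and ALDH6A1 higher, ALDH16A1 lower). The ALDH16A1 value of -2.16 rested on NSI replicate 2, at 1.00 CPM beside 0.172 and 0.0915 CPM, and was -0.50 without it. Of all genes tested in PC3, 27% were called. In VCaP, 5 of 9 were called (55.6%), 3 higher and 2 lower, beside 45.8% of all genes. ALDH1A2, another retinaldehyde dehydrogenase, rose from 0.139 to 0.592 CPM (log2 fold change 2.09, SE 0.34, edgeR adjusted p = 0.000798), from 22 and 91 counts per group. In PC3 it stood at 64.3 CPM with NSI and 70.9 CPM with siFOXA1. ALDH1L2, a mitochondrial folate enzyme, rose in VCaP by 2.12 (SE 0.19, edgeR adjusted p = 2.44e-05), also from a low level, a mean under 1 CPM in that line. ALDH4A1, which breaks down proline, rose by 0.30 (SE 0.08, edgeR adjusted p = 0.0157), which missed the threshold when NSI replicate 2, siFOXA1 replicate 1 or siFOXA1 replicate 2 was left out, at adjusted p up to 0.0681. ALDH9A1, of carnitine synthesis, and ALDH6A1, of valine breakdown, fell by 0.42 and 0.39 on the log2 scale in VCaP (SE 0.06 and 0.05, edgeR adjusted p = 0.000583 and 0.000297). ALDH3B2, ALDH5A1, ALDH16A1 and ALDH18A1 were not called in VCaP, and ALDH1L1 and ALDH8A1 were under the filter there.

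The enzymes that share the molybdenum cofactor with AOX1, and those that make it, were called in both directions in each line's own fit. XDH, the xanthine oxidoreductase of purine breakdown and the closest relative of AOX1, rose in both lines, from 0.873, 0.892 and 1.13 to 5.18, 4.55 and 5.07 CPM in PC3 and from 25.5, 27.2 and 18.2 to 56.7, 63.0 and 50.8 CPM in VCaP. Its log2 fold changes were 2.35 (SE 0.15, edgeR adjusted p = 1.93e-05) and 1.27 (SE 0.14, adjusted p = 7.63e-05). Of the 9 genes of this list, 3 were called in PC3, with MARC1 (-0.66, SE 0.13) and MOCS1 (-0.42, SE 0.13) lower (33.3% beside 27% of all genes), and 7 with the replicate block, 2 higher and 5 lower. In VCaP 5 were called, XDH, SUOX (0.55, SE 0.07) and MOCOS (0.27, SE 0.10) higher, and MOCS1 (-0.32, SE 0.10) and MARC1 (-0.23, SE 0.06) lower, which is 55.6% beside 45.8% of all genes. Without VCaP siFOXA1 replicate 2, and with all 12 libraries in the fit, 2 were called there, both higher, and 3 were called without NSI replicate 1 or without NSI replicate 3. MOCOS attaches the sulfur that AOX1 and XDH need, and its call (edgeR adjusted p = 0.0431) held in 4 of 13 alternatives, at adjusted p up to 0.171. MOCS1 kept its call in 8 of 13 alternatives in each line. The list's median was -0.21 in PC3 and -0.05 in VCaP.

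Of the other genes of retinoid metabolism, RDH10 was the lowest with siFOXA1 in VCaP. RDH10, which makes retinaldehyde from retinol, fell in VCaP from 197, 193 and 173 to 18.7, 15.2 and 12.7 CPM (log2 fold change -3.60, SE 0.13, edgeR adjusted p = 1.98e-07), and in PC3 from 80.0, 60.9 and 83.6 to 49.9, 43.9 and 46.2 CPM (-0.68, SE 0.13, adjusted p = 0.00545). RDH11 and DHRS3, which turn retinaldehyde back into retinol, fell in VCaP by 1.28 and 0.98 on the log2 scale (SE 0.10 and 0.06, edgeR adjusted p = 7.98e-06 and 2.69e-06). In PC3 they stood at 0.09 (SE 0.08) and 0.19 (SE 0.11) and were not called. Of the receptors, RXRA rose in VCaP by 0.89 (SE 0.05, edgeR adjusted p = 2.21e-06), RARA fell in PC3 by 0.41 (SE 0.09, adjusted p = 0.00968), and RARG rose in PC3 by 0.28 (SE 0.07, adjusted p = 0.0235). RARG fell in VCaP by 0.66 on the log2 scale (SE 0.10, edgeR adjusted p = 0.000459). The RARG call in PC3 was lost in 6 of 13 alternatives, up to an adjusted p of 0.103. In all, 3 of 14 retinoid genes were called in PC3, 1 higher and 2 lower, and 9 of 15 in VCaP, 3 higher and 6 lower, which is 21.4% and 60% beside 27% and 45.8% of all genes. The medians were 0.07 and -0.33.

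Of the enzymes that form aldehydes, MAOA and AOC1 were the furthest from 0 in VCaP. Of 9 tested in PC3 only ADH6, at under 0.2 CPM, was called (11.1% beside 27% of all genes), and 2 with the replicate block. ADH6 missed the threshold without NSI replicate 3 or without any 1 of the siFOXA1 libraries. In VCaP, 5 of 8 were called, 4 higher and 1 lower, the lower one PAOX (-0.62, SE 0.21), named after its value was seen. This is 62.5% beside 45.8% of all genes, 22.5% higher and 23.3% lower. MAOA, the monoamine oxidase, rose in VCaP from 85.9, 72.0 and 69.5 to 278, 278 and 214 CPM (log2 fold change 1.76, SE 0.12, edgeR adjusted p = 4.19e-06). AOC1, the histamine-degrading diamine oxidase, rose there from 0.25, 0.159 and 0.104 to 4.53, 4.43 and 3.64 CPM (4.61, SE 0.24, edgeR adjusted p = 8.59e-07). SMOX, the spermine oxidase, rose by 0.48 (SE 0.12, edgeR adjusted p = 0.0092), a call just lost without siFOXA1 replicate 1 (adjusted p = 0.0509). SGPL1, which releases the long-chain aldehyde that ALDH3A2 oxidises, rose by 0.21 (SE 0.06, edgeR adjusted p = 0.0113). The medians were 0.16 in PC3 and 0.15 in VCaP.

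Among the enzymes that reduce or conjugate aldehydes, the carbonyl reductase CBR3 took the AOX1 pair of directions. It rose in PC3 from 2.85, 4.24 and 2.98 to 5.78, 7.33 and 4.57 CPM (log2 fold change 0.81, SE 0.21, edgeR adjusted p = 0.0219) and fell in VCaP from 21.2, 20.5 and 22.4 to 13.5, 12.1 and 11.6 CPM (-0.79, SE 0.08, adjusted p = 4.21e-05). In PC3 it missed the threshold when NSI replicate 1 or 3, or siFOXA1 replicate 1 or 2, was left out, at adjusted p up to 0.0851. CBR3 was the only call among 8 genes in PC3 (12.5% beside 27% of all genes), where the replicate block gave 3. In VCaP 4 of 7 were called (57.1% beside 45.8%), the others being AKR7A2 (-0.36, SE 0.07), AKR1A1 (0.24, SE 0.07) and AKR1B10, which stayed under 0.4 CPM. The AKR1A1 call missed the threshold without NSI replicate 2, siFOXA1 replicate 1 or siFOXA1 replicate 2, and with all 12 libraries in the fit. The medians were 0.05 and -0.08.

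In the aryl hydrocarbon receptor battery, the receptor's known targets and partners, most genes were called higher in VCaP and few were called in PC3. The receptor is also known to induce ALDH3A1. In PC3, 2 of 7 tested were called, CYP1B1 (log2 fold change 1.14, SE 0.16, edgeR adjusted p = 0.00135) and CYP1A1 (1.04, SE 0.14, adjusted p = 0.00124), both higher. In VCaP, 6 of 7 were called, all higher, led by CYP1A1 (2.23, SE 0.21, edgeR adjusted p = 2.81e-05), NQO1 (1.29, SE 0.09, adjusted p = 3.97e-06), CYP1B1 (0.75, SE 0.09, adjusted p = 0.000114) and AHR itself (0.58, SE 0.13, adjusted p = 0.00466). The remaining gene, the receptor's repressor AHRR (-0.27, SE 0.10), was called lower with DESeq2 size factors, library size alone, the replicate block and without siFOXA1 replicate 3. The replicate block gave 3 calls in PC3, all higher. Without the block the called share of the list was 28.6% in PC3 and 85.7% in VCaP, beside 27% and 45.8% of all genes. All genes were called higher in 15% of cases in PC3 and 22.5% in VCaP. ALDH3A1, which belongs with these genes, was not called in PC3 and lay at 1 to 3 counts in VCaP. The medians were 0.09 in PC3 and 0.58 in VCaP.

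**Figure D4:**
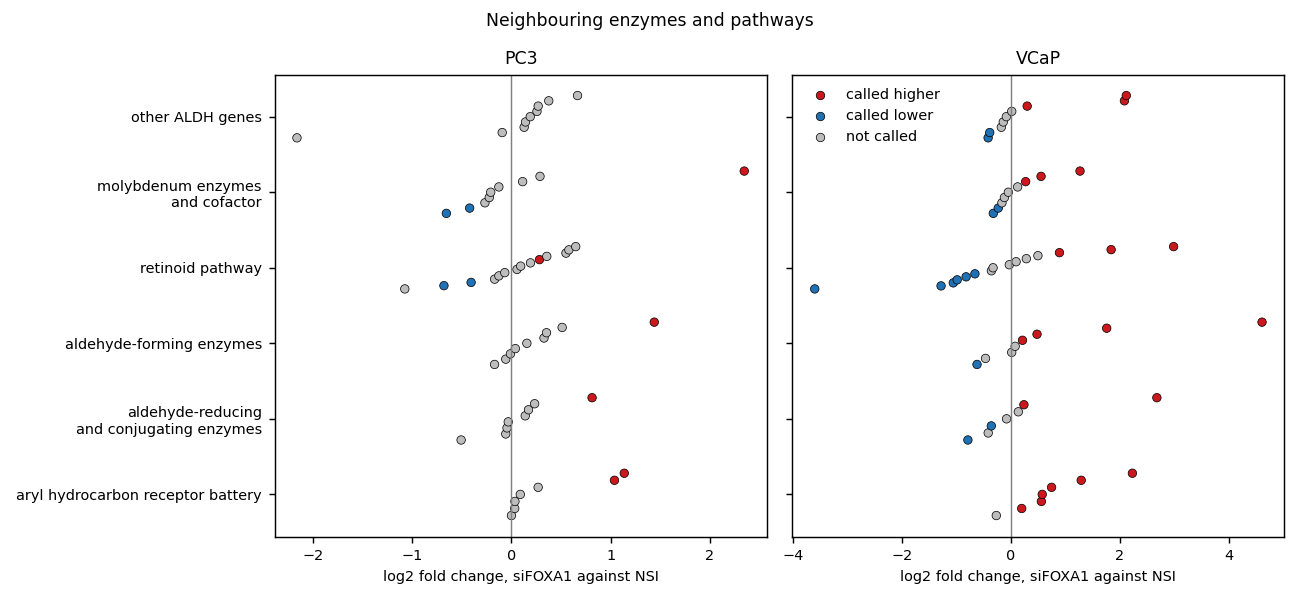
Log2 fold change of siFOXA1 over NSI (horizontal axes, with a different range in each panel) for the genes tested in the 6 neighbouring lists, PC3 on the left and VCaP on the right. Each point is a gene, red where called higher, blue where called lower and grey where not called. XDH is the highest molybdenum gene in both panels, and RDH10 is the lowest retinoid gene in VCaP at -3.60.

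Markers of blood, endothelial and stromal cells were also counted, 11 of the 12 listed being matched. Their summed level was 23.9 to 28.7 CPM with NSI and 41.5 to 46.3 CPM with siFOXA1 in PC3, and 16.3 to 24.9 against 6.05 to 9.72 CPM in VCaP, so it was separate between the groups in the same directions as AOX1. Single markers did not all go that way. The monocyte gene CD14 rose in VCaP from 0.698 to 2.72 CPM (log2 fold change 1.97, SE 0.18, edgeR adjusted p = 2.07e-05), and the pericyte gene PDGFRB fell in PC3 from 0.919 to 0.591 CPM (-0.63, SE 0.20, edgeR adjusted p = 0.0437). CD14 also rose in PC3 (0.77, SE 0.24, edgeR adjusted p = 0.0450), and PDGFRB also fell in VCaP (-1.36, SE 0.38, edgeR adjusted p = 0.0152). The sum was mostly the collagen genes COL1A1 and COL1A2 in PC3 and the proteoglycan gene LUM in VCaP with NSI. These went with the sum, COL1A1 (0.62, SE 0.10, edgeR adjusted p = 0.00261) and COL1A2 (1.60, SE 0.14, adjusted p = 0.000115) in PC3. In VCaP so did LUM (-3.97, SE 0.22, edgeR adjusted p = 1.28e-06) and the endothelial gene VWF (-1.19, SE 0.13, adjusted p = 6.09e-05). Of the other leukocyte genes, PTPRC and CD3E were under 0.2 CPM in every library, and PTPRC rose in PC3 from 0.0237 to 0.109 CPM (2.20, SE 0.63, edgeR adjusted p = 0.0311). In all, 0 to 4 of the 11 markers had no count in a library. Their part in the AOX1 values was not tested.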

How the data were processed

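Each library came as a deposited table of estimated counts by gene. The expected counts are those of featureCounts (Subread 2.0.0), run by the authors, per the file headers, over exons of the GENCODE basic annotation on GRCh37, requiring both ends to map and dividing fragments among several places or overlapping genes, with strand ignored for PC3 and reverse strand for VCaP. STAR 2.7.3a is named in the submitters' processing notes. The counts were not normalized.

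Counts were rounded and fitted with edgeR 4.0.16 in R 4.3.3 (limma 3.58.1): TMM factors, filterByExpr, quasi-likelihood test, two-sided, Benjamini-Hochberg adjustment over all genes tested, call under 0.05. Each line was fitted on its 6 libraries, the difference between lines on all 12 and the NSI contrast on 6. The SE is the unshrunken coefficient over the root of F. FPKM is CPM per kilobase of exon. The fits were tested on simulated data, with 100 genes changed at each of 2 sizes. A log2 change of 0.5 was called for 19% of genes in PC3 and 48% in VCaP, so changes of that size are often missed, more so in PC3. A change of 1 was called for 95% and 99%. False calls were 5.79% of calls in PC3 and 6.37% in VCaP.

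Groups come from the titles. Replicates of a group differed by more than counting noise, so none was merged. Deviations of same-numbered PC3 libraries from their group means were correlated (0.49, 0.63 and 0.24), over 0.1 in every pair, which is a hint of pairing in PC3. All values come from fits with no block unless the block is named. What the numbers share is not given in the labels.

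The genes and all lists were chosen with earlier results of these data known. Named were FOXA1, the 9 genes, genes with overlapping exons or pseudogenes of them, the other ALDH genes, per list and line up to 4 called genes with the largest change and a mean of at least 1 CPM, and the 5 genes most like AOX1. Alternatives were other scalings, no filter, DESeq2 1.42.0, the replicate block, all 12 libraries in each line's fit, each library left out, and shares with no division by length.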

Additional observations from a re-analysis of the deposited data

Results flagged for a closer look

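The siFOXA1 effect differed between VCaP and PC3, by the interaction term of edgeR's quasi-likelihood test at an adjusted p under 0.05, for 19 of the named genes. Over all 30425 genes, 22.2% were called. Apart from FOXA1 and the other ALDH genes, those flagged were named for a large called change in a line in these same libraries. Such a choice favours a difference between the lines, so the 19 is not read against the share of all genes. FOXA1 itself differed by -1.93, and the siRNA dose, kit and medium differed with the line, so what part they have in the other values cannot be told apart. AOX1 and the 8 ALDH genes described with it were left out here, since this contrast led to their choice.

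Of the other ALDH genes, ALDH1A2 (1.98) and ALDH1L2 (1.48) were more positive in VCaP, where both had a mean under 1 CPM. ALDH6A1 (-0.62) and ALDH9A1 (-0.52) were more negative in VCaP. In retinoid metabolism the differences were -2.89 for RDH10, -1.35 for RDH11, -1.16 for DHRS3, -0.92 for RARG and 0.98 for RXRA. Among aldehyde-forming enzymes they were 1.95 for MAOA and 0.51 for SMOX. AOC1 differed by 6.75 (SE 0.96), with 15 counts over the PC3 NSI libraries and 3 over the PC3 siFOXA1 libraries behind the PC3 side. XDH differed by -1.05, being higher with siFOXA1 in both lines, and CBR3 by -1.58. In the aryl hydrocarbon receptor list CYP1A1 differed by 1.21 and NQO1 by 1.04.

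The weakest were MARC1 (0.44, adjusted p = 0.0344), called in 7 of 18 alternatives at edgeR adjusted p up to 0.117, and AHR (0.56, adjusted p = 0.0458), called in 4 of 18 at edgeR adjusted p up to 0.18. SMOX was called in 15 of 18.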

How the results depend on the processing

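All 9 genes kept the sign of their log2 fold change in each line wherever they could be fitted, over 13 alternatives per line. The number of these genes past the threshold in PC3, a description since this contrast chose them, was 5, and 8 both with the replicate block and in the fit of all 12 libraries. Over all genes the PC3 count of 7149 became 11297 with the replicate block, and lay between 3945 (without siFOXA1 replicate 1) and 7592 (without NSI replicate 2) when 1 library was left out. It was 4602 without NSI replicate 3. Pairing by number was unclear in VCaP, with correlations of 0.11, 0.02 and 0.37 between same-numbered libraries. For replicates 1, 2 and 3 the means over other numbers were -0.02, 0.01 and -0.23. The block gave 11482 calls in VCaP, 7 of them in the 9 genes, and 8811 for the difference between lines. Scaling by library size alone split the calls of that difference into 2643 higher and 3880 lower, beside 3427 and 3333. With no division by length the AOX1 share was 3.60% in PC3 and 12.0% in VCaP with NSI, and 1.49% in VCaP with siFOXA1. ALDH18A1 in VCaP lay near 0 and took either sign, from -0.033 to 0.087 when 1 library was left out (-0.03 without NSI replicate 1 or 2, -0.02 without siFOXA1 replicate 3).

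Depth limits ALDH3A1 and ALDH3B1 in VCaP and ALDH1A1 in PC3. With 3 libraries a group, a library left out can end a weak call. Values of the lines were set on separate scales except in the joint fits. Fragments shared between overlapping genes were divided by the authors, and ALDH1A3 is the gene most touched.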
